A study of Rattus norvegicus with 4 samples.

Results

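The transcripts of the insulin-like growth factor (IGF) axis described here are those of the ligands Igf1 and Igf2, the receptors Igf1r and Ghr, and the binding proteins Igfbp2 to Igfbp7, a list chosen as local targets of growth hormone. They were found as all probe sets whose platform symbol is one of these 10 genes, which gave 19 of the 15866 probe sets on the chip, and every gene had at least 1. Of the 19, 14 were bright enough to be tested, and they covered all 10 genes. The 5 left out were 3 probe sets of Igf2 and 1 each of Ghr and Igfbp5.

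RNA came from scraped oxyntic mucosa, where the stomach makes acid, of female Sprague-Dawley rats of 8 weeks, at 21 days of a study of octreotide LAR. Octreotide is a stable somatostatin analogue, and LAR names a depot that releases it slowly. In the octreotide LAR group, given 5 mg per animal, 3 Affymetrix RAE230A chips each held RNA pooled from 2 animals, called pools 1 to 3. In the vehicle group, given the depot vehicle without octreotide, 1 chip held RNA pooled from 8 animals. All animals were of the same strain and sex, fasted overnight before anaesthesia with fentanyl, haloperidol and midazolam, and carried no genetic change named in the labels. The title of the vehicle sample gives vehicle while its source name mentions octreotide LAR, and the title was followed. The labels give the age without saying at which time it was taken.

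Growth hormone from the pituitary acts through its receptor Ghr and the JAK2 and STAT5 signalling pair to raise transcription of Igf1 in liver and in many other tissues, and somatostatin analogues restrain its release. IGF1 and IGF2 act through the receptor tyrosine kinase IGF1R. The IGF binding proteins hold the ligands in serum and tissue, prolong their life and limit or direct their access to the receptor. In the gut wall Igf1 and several of the binding proteins are known chiefly from fibroblasts, smooth muscle and vessels.

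Igf1 is the textbook transcriptional target of growth hormone, and Igfbp2 had the smallest p of these genes, so the 250 bases upstream of their annotated starts are shown from RefSeq on build GRCr8, 5′ to 3′ on the gene's own strand, which is the plus strand for both (chr7:24172282-24172531 and chr9:81864561-81864810). Capitals mark a match to 1 of 3 motifs searched on both strands: TTCNNNGAA, the STAT5 element, TATAAA, the TATA box, and GGGCGG, the GC box. The Igf1 window holds no match and the Igfbp2 window holds 1, a GC box.
Igf1: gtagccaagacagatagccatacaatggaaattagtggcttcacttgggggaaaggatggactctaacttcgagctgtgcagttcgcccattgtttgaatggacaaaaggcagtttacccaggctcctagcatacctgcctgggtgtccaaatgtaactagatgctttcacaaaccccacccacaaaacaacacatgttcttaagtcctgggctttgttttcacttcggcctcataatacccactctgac
Igfbp2: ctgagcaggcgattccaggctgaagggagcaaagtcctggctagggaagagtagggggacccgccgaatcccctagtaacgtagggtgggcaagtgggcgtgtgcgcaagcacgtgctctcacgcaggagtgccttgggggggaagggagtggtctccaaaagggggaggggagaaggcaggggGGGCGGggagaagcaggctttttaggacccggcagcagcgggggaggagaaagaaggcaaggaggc
The table held 11 windows for the 10 genes, 2 of them for Igf2. None of the 11 held the STAT5 element, against 7.67% of all 33469 windows of this length. The TATA box was in 1, that of Igfbp4, at 40 bases upstream of the start, against 12.9% of all windows. The GC box was in 4, those of Igf1r, Igfbp2, Igfbp7 and 1 of Igf2, against 30.5% of all windows. These matches describe the letters of the windows and nothing else. In the same assembly Igfbp2 and Igfbp5 are neighbouring protein-coding genes on chromosome 9.

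The deposited signals were linear intensities. The median signal was 223.7 to 233.4 on the treated chips and 225.9 on the vehicle chip. All 4 chips had the same chip lot, the same wash protocol and the same hybridisation day, and each ran in its own fluidics module, so module and vehicle group cannot be told apart. Over the probe sets tested, r was 0.9614 to 0.9685 between treated chips and 0.9629 to 0.9679 between a treated chip and the vehicle chip, a description over probe sets and not over independent samples. The defining markers of the tissue were bright. The proton pump subunits Atp4a and Atp4b of parietal cells averaged 26482 ± 2554 and 38311 ± 3634 (SD, n = 3) on the treated chips and had 26693 and 39974 on the vehicle chip. The pit cell mucin Muc5ac averaged 25326 ± 1583 (SD, n = 3) on the treated chips and had 21220 on the vehicle chip.

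Octreotide LAR was compared with vehicle to ask whether local transcripts of the growth hormone and IGF axis differed in the oxyntic mucosa after 21 days of the depot. No probe set of the axis passed the test. Igfbp2 was lower on all 3 treated chips, with the smallest p of the axis. Igf1r and 1 of the tested Igfbp6 probe sets were higher on all 3, while the second Igfbp6 probe set was lower on all 3. The other 10 tested probe sets, including both of Igf1, lay on both sides of the vehicle chip. Each was tested with limma on log2(signal + 16), with Benjamini-Hochberg adjustment over all 9520 probe sets tested and a threshold of 0.05. Of the 14 tested, 0 were called and 1, that of Igfbp2, had an unadjusted p under 0.05. With 1 treated pool left out, the log2 difference of Igfbp2 ran from -0.66 to -0.41 and that of the tested Igf2 probe set from 0.03 to 0.54. That of Igfbp5 1370960_at ran from -0.54 to -0.10 and that of Igfbp6 1372168_s_at from 0.17 to 0.61. With all pools the limma adjusted p was 0.9998 for the other 13 and 0.987 for Igfbp2. Over all 9520 the same limma test called 10, which is 0.105% (9 higher, 0.0945%, and 1 lower, 0.0105%), and 435 had an unadjusted p under 0.05, which is 4.57%. In whole mucosa, fewer cells of a type and less RNA per cell cannot be told apart. The vehicle group is 1 chip without a spread of its own, so the test assumes that it varies like the treated chips. That chip pools 8 animals and each treated chip 2, so the design does not give them an equal spread. The residual spread in the test comes from the pools of 2 only. What sets the vehicle pool of animals apart cannot be told apart from treatment. Signals of different probe sets are not set against each other here, since each probe set has its own response.

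**Figure D1:**
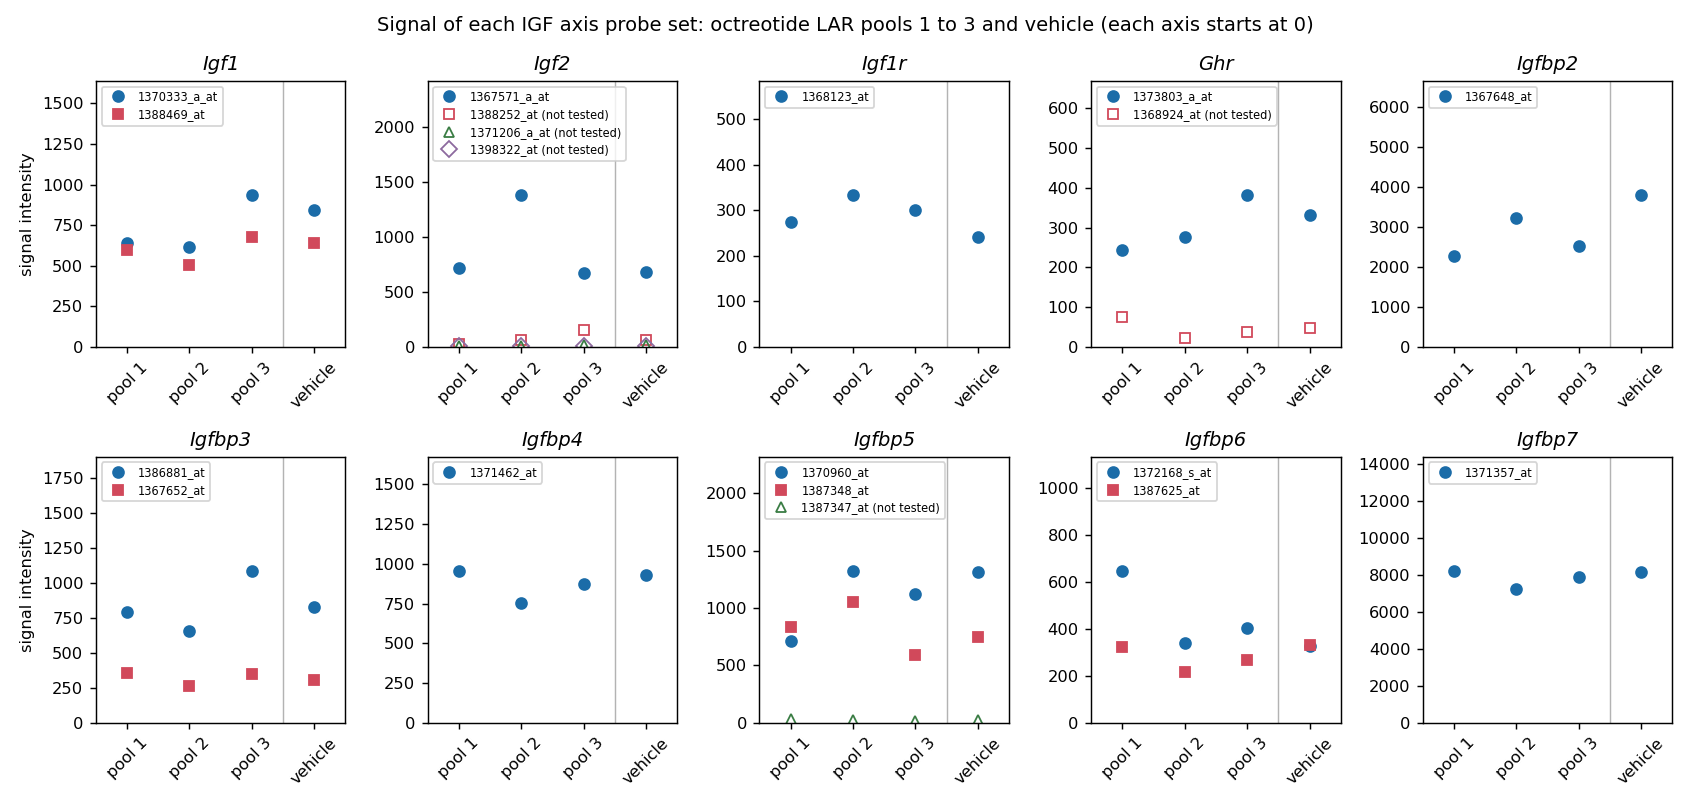
Deposited linear signal intensity of each of the 19 probe sets, in 1 panel per gene, on octreotide LAR pools 1, 2 and 3 and, right of the grey line, on the vehicle chip. Each symbol is 1 chip, filled symbols were tested and open symbols lay under the level required for testing, and the 3 treated Igfbp2 signals of 2282.2, 3224.9 and 2532.1 sit below the vehicle signal of 3804.3.

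The ligand Igf1, a secreted peptide that drives growth of many tissues, had 2 tested probe sets. The brighter one (1370333_a_at) had signals of 642.4, 617.8 and 936.0 on octreotide LAR pools 1, 2 and 3, against 843.6 on the vehicle chip. Pools 1 and 2 were below the vehicle chip and pool 3 was above it. The log2 difference was -0.23 (95% interval by limma -0.76 to 0.31), and it was -0.12 without pool 2 and -0.41 without pool 3. The second probe set (1388469_at) had 595.3, 506.7 and 676.7 on treated pools 1 to 3, against 640.6 on the vehicle chip. It put the pools in the same places, with pools 1 and 2 below the vehicle chip and pool 3 above it. Its log2 difference was -0.12 (interval -0.62 to 0.39), and it was -0.01 without pool 2 and -0.22 without pool 3. On the fold scale these intervals ran from 0.589 to 1.24 and from 0.650 to 1.31, treated over vehicle. They are not adjusted for the number of probe sets tested.

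Igf2, the second ligand, is a growth factor best known from fetal tissues. It had 1 tested probe set (1367571_a_at) with signals of 718.5, 1379.3 and 675.6 on treated pools 1 to 3, against 682.6 on the vehicle chip. Pool 2 alone was far above the vehicle chip, by 0.998 on the log2 scale, while pools 1 and 3 were at 0.07 and -0.01. The mean log2 difference of 0.35 (interval -0.34 to 1.04) rested on pool 2 and was 0.03 without it. The other 3 probe sets of Igf2 were too dim to be tested. The brightest of them (1388252_at) had 26.7, 64.4 and 151.3 on treated pools 1 to 3, against 64.3 on the vehicle chip. Its pool 2 signal was not high, but at a mean of 66.4 over the chips it is too dim to check the value of pool 2. The remaining probe sets had treated signals of 12.2, 6.4 and 14.4 against a vehicle signal of 19.7 (1371206_a_at), and of 5.9, 13.2 and 11.1 against 9.5 (1398322_at).

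Igf1r, the receptor tyrosine kinase through which both ligands signal, had 273.8, 333.3 and 299.4 on treated pools 1 to 3, against 241.7 on the vehicle chip. All treated chips were above the vehicle chip, by 0.17, 0.44 and 0.29 on the log2 scale. Their mean gave a log2 difference of 0.30 (interval -0.31 to 0.91) and did not pass the test. Ghr, the growth hormone receptor, had 243.2, 276.7 and 382.1 on pools 1, 2 and 3 in its tested probe set (1373803_a_at), against 331.6 on the vehicle chip. Pools 1 and 2 were below the vehicle chip and pool 3 above it, the same places as for Igf1. This gave a log2 difference of -0.16 (interval -0.81 to 0.50), which was -0.03 without pool 1 and -0.34 without pool 3. A dimmer Ghr probe set (1368924_at) was not tested and had 75.2, 22.5 and 37.8 on treated pools 1 to 3, against 48.9 on the vehicle chip. There pool 1 was above the vehicle chip, but all its signals were under the level of 144.7 required for testing. Signals this dim cannot show whether the Ghr probe sets placed the pools alike.

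Among the binding proteins, Igfbp2, a secreted carrier of both IGF1 and IGF2, stood first by p. Its signals were 2282.2, 3224.9 and 2532.1 on treated pools 1 to 3, against 3804.3 on the vehicle chip. All treated chips were below the vehicle chip, by 0.73 on pool 1 and 0.58 on pool 3 but by 0.24 on pool 2. The mean signal was 2680 ± 488 (SD, n = 3) on the treated chips. The log2 difference was -0.52, or 1.43-fold lower on the log2(signal + 16) scale (interval -0.94 to -0.09, limma unadjusted p = 0.021, adjusted p = 0.987). By unadjusted p it ranked 191 of the 9520 probe sets tested, and the difference did not pass over all of them. Without pool 2 the limma adjusted p was 0.147, the smallest that any axis probe set reached under any alternative.

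Igfbp3, the main IGF carrier of serum, had 2 tested probe sets that lay around the vehicle chip. The brighter one (1386881_at) had 794.6, 659.3 and 1087.4 on treated pools 1 to 3, against 830.8 on the vehicle chip, a log2 difference of -0.0026 (interval -0.55 to 0.55). The second (1367652_at) had 355.8, 263.9 and 350.0, against 305.8 on the vehicle chip, a log2 difference of 0.06 (interval -0.55 to 0.68). In both, pool 2 was the lowest treated chip and the only one below the vehicle chip by over 0.2 on the log2 scale. Igfbp4, a binding protein known to restrain IGF action, had 956.8, 755.8 and 872.8 on treated pools 1 to 3, against 932.4 on the vehicle chip. Its log2 difference was -0.12 (interval -0.57 to 0.34) and ran from -0.20 to -0.03 with 1 treated pool left out.

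Igfbp5, a binding protein that attaches to extracellular matrix, gave tested probe sets that did not run together. The brighter one (1370960_at) had 712.8, 1324.3 and 1120.1 on treated pools 1 to 3, against 1310.2 on the vehicle chip. The low value was that of pool 1, at -0.86 on the log2 scale. The mean came to -0.36 on the log2 scale (interval -0.95 to 0.24) and was -0.10 without pool 1. The other tested probe set (1387348_at) had 837.5, 1051.4 and 590.6 on treated pools 1 to 3, against 742.8 on the vehicle chip, with pool 3 as the low one. Its log2 difference was 0.11 (interval -0.47 to 0.70). The third probe set (1387347_at) was not tested and had 30.1, 24.2 and 18.8, against 22.6 on the vehicle chip. No direction for Igfbp5 can therefore be given.

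Igfbp6, a binding protein with a known preference for IGF2 over IGF1, also had probe sets on opposite sides. The first (1372168_s_at) had 646.7, 340.5 and 402.9 on treated pools 1 to 3, against 328.3 on the vehicle chip. All treated chips were above the vehicle chip, with pool 1 at 0.94, pool 2 at 0.05 and pool 3 at 0.28 on the log2 scale. As a mean the log2 difference came to 0.43 (interval -0.26 to 1.11), and it was 0.17 without pool 1. The second (1387625_at) had 322.7, 214.0 and 265.9, against 329.9 on the vehicle chip. Here all treated chips were below the vehicle chip, by 0.03, 0.59 and 0.30 on the log2 scale, for a log2 difference of -0.30 (interval -0.96 to 0.35), which was -0.16 without pool 2. On Affymetrix chips the suffix of the first marks probes shared by several transcripts, which need not all come from 1 gene. Whether the probe sets differed from each other was not tested.

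Igfbp7, a secreted protein of vessel walls and matrix with low affinity for IGFs, had the narrowest interval. Its signals were 8232.6, 7233.7 and 7888.9 on treated pools 1 to 3, against 8178.9 on the vehicle chip. Pool 1 was level with the vehicle chip and pools 2 and 3 were below it, by 0.18 and 0.05 on the log2 scale. Igfbp7 thus had a log2 difference of -0.07 (interval -0.41 to 0.26), and of -0.11 to -0.02 with 1 treated pool left out. On the fold scale the interval ran from 0.754 to 1.20, treated over vehicle.

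**Figure D2:**
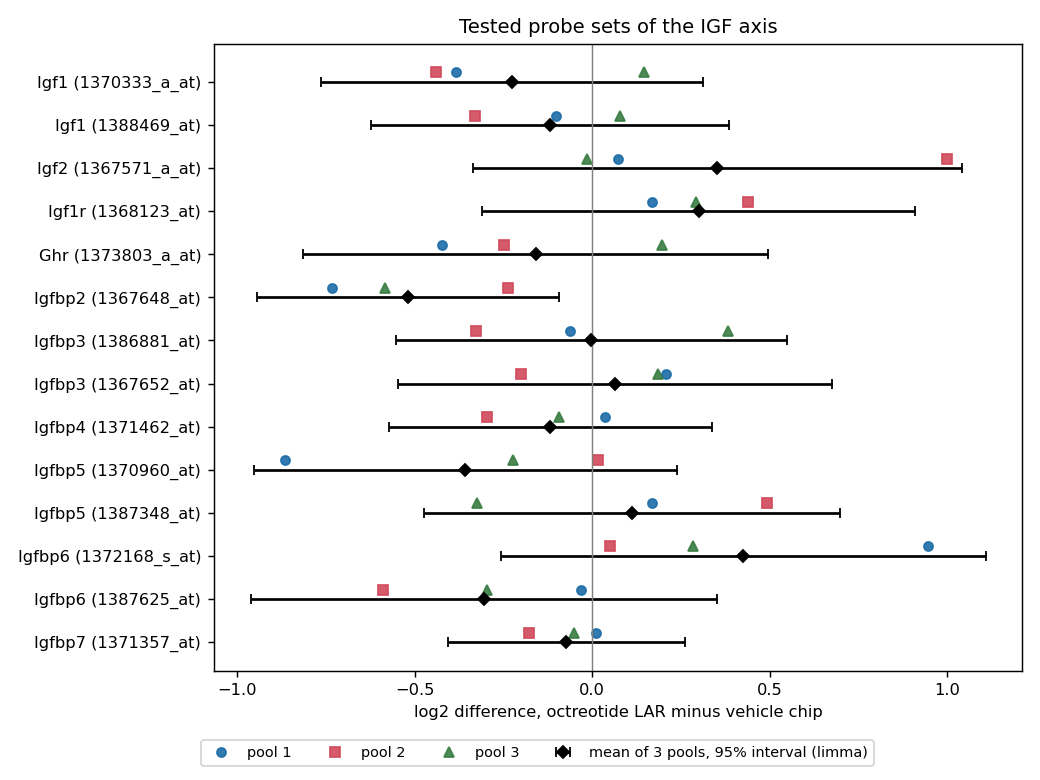
Log2 difference from the vehicle chip for the 14 tested probe sets: black diamonds with bars are the mean of 3 pools with its 95% interval from limma, and coloured symbols are octreotide LAR pools 1, 2 and 3. The interval of Igfbp2, from -0.94 to -0.09, is the only one that leaves out 0, before adjustment for the number of probe sets tested.

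The differences of the axis as a group were read beside those of all probe sets. Of the 14 tested, 5 were higher and 9 lower in the mean, with a median log2 difference of -0.10, and over all 9520 tested the counts were 4699 higher and 4821 lower with a median of -0.0031. Of the 14, 4 lay on 1 side of the vehicle chip on all treated chips, which is 28.6%, against 48.9% of all 9520. They were 2 above and 2 below it, where 25.0% and 24.0% of all probe sets tested lay. The 3 ligand probe sets had 1 higher and 2 lower, the 2 receptor probe sets 1 each way, and the 9 binding protein probe sets 3 higher and 6 lower. The median of the 14 was -0.01 on pool 1, -0.22 on pool 2 and 0.03 on pool 3, so that the low group median was that of pool 2. The choice of 1 probe set per gene, the brightest, gave 3 genes higher and 7 lower.

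For most probe sets of the axis the treated pools differed from each other by more than their mean differed from the vehicle chip. The range between pools had a median of 0.57 on the log2 scale over the 14 probe sets, against 0.35 over all 9520. The size of the difference from vehicle had a median of 0.19 over the 14 and 0.17 over all 9520. The difference was larger than the range between pools for 2 of the 14, those of Igf1r and Igfbp2, which is 14.3%, against 23.4% of all probe sets tested. The half-widths of the 95% intervals ran from 0.33 for Igfbp7 to 0.69 for Igf2 on the log2 scale, the size below which a difference could not be separated from 0 even before adjustment.

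**Figure D3:**
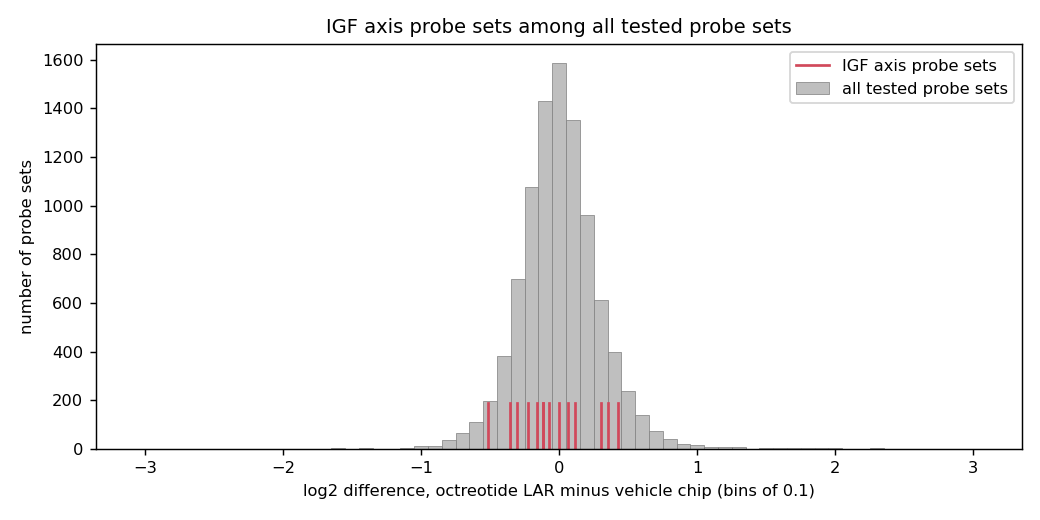
Number of tested probe sets in bins of 0.1 of the log2 difference, octreotide LAR minus vehicle (grey bars, 9520 in all), with the 14 probe sets of the IGF axis as red lines of fixed height. The red lines run from -0.52 for Igfbp2 to 0.43 for Igfbp6. The bins of these outermost lines hold 197 and 399 probe sets, against 1586 in the fullest bin, around 0.

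Other genes of growth hormone and IGF signalling were read from a list of 61, of which 50 were on the chip and 32 were tested, each by its brightest probe set. Of the 32, 13 were higher and 19 lower in the mean, 14 of them on 1 side of the vehicle chip on all treated chips (43.8%, against 49.2% of all 7150 genes by their brightest probe set). None was called by limma and 1 had an unadjusted p under 0.05, while 9 of the 7150 genes, 0.126%, were called and 4.55% had such a p. The 1 was Stat3, a transcription factor activated by growth hormone and by many cytokines. Stat3 had 2297.4, 2009.8 and 1950.1 on treated pools 1 to 3, against 2937.7 on the vehicle chip, with all treated chips lower. Its log2 difference was -0.49 (interval -0.87 to -0.11, limma unadjusted p = 0.015, adjusted p = 0.987).

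The next by p were the growth-controlling kinase Mtor and the receptor adaptor Grb14, both higher on all treated chips. Mtor had 472.5, 522.1 and 519.5 on treated pools 1 to 3, against 376.0 on the vehicle chip, and Grb14 had 371.3, 432.7 and 418.9, against 315.3. Neither passed (limma adjusted p = 0.9998 for both). Stat5a, a main carrier of the growth hormone signal to DNA, had 307.3, 323.3 and 343.0 on treated pools 1 to 3, against 403.7 on the vehicle chip (limma adjusted p = 0.9998). Jak2 and the untested Stat5b lay on both sides of the vehicle chip. Jak2 had 123.4, 200.6 and 148.7 on treated pools 1 to 3, against 157.3, and Stat5b had 98.2, 76.6 and 155.5, against 105.5. Socs2 and Cish, feedback inhibitors known to be induced by growth hormone, were too dim to be tested. Socs2 averaged 12.5 ± 3.28 (SD, n = 3) on the treated chips and had 15.7 on the vehicle chip. Cish had 90.7, 138.0 and 154.9 on the treated chips, against 158.2. Socs3, also untested, lay on both sides, with 90.5, 87.1 and 176.3 on the treated chips against 151.7. Igfbp1, a binding protein made chiefly by liver, was as dim, with 8.8, 80.6 and 10.8 on the treated chips against 17.1, as was Igfals, the serum partner of Igfbp3, with 8.1, 17.1 and 20.9 against 7.1. Stat5a, Stat5b, Jak2, Socs2, Socs3, Cish, Igfbp1 and Igfals were picked for their roles after their values were seen.

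Fibroblasts, smooth muscle and vessels, from which Igf1 and several of the binding proteins are chiefly known, were followed by their markers. Of 9 fibroblast markers all were tested, 5 higher and 4 lower in the mean, and their summed signal was 38946 to 41725 on the treated chips and 41501 on the vehicle chip. Such sums are weighted to the brightest probe sets, here Dcn, with 20554.5 to 23018.1 on the treated chips and 21566.1 on the vehicle chip. Lum and Fbln1 were higher and Col1a1 lower on all treated chips, and the others lay on both sides. Of 8 smooth muscle markers all were tested, 4 higher and 4 lower, and their summed signal was 83478, 70792 and 62678 on pools 1, 2 and 3 and 71262 on the vehicle chip. Of 8 endothelial markers 6 were on the chip and 5 were tested, and the 6 had a summed signal of 4238 to 4653 on the treated chips and 4133 on the vehicle chip. No marker of these 3 lists was called, at a smallest limma adjusted p of 0.9998. The median log2 difference was 0.07 for fibroblast, -0.0027 for smooth muscle and 0.13 for endothelial markers. Smooth muscle markers summed highest on pool 1, the pool on which the Igfbp6 probe set 1372168_s_at was high and the Igfbp5 probe set 1370960_at was low. Parietal, chief cell and squamous forestomach markers also summed highest on pool 1, so that pool does not single out smooth muscle. The part of any of these cells in the Igfbp6 and Igfbp5 values was not tested.

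Among markers of other cells, calls were made in 2 lists. Of 15 markers of the squamous forestomach, the stratified epithelium next to the oxyntic mucosa, 13 were on the chip, and 12 of the 13 were higher on every treated chip, Tp63 being the exception. Their summed signal was 9751, 7112 and 6232 on pools 1, 2 and 3 and 1940 on the vehicle chip. Of the 11 tested, 5 had reached the level required for testing through their treated signals, with the vehicle chip under it, and are not counted among calls here. Of the other 6, limma called 4 higher (Loricrin, Krt10, Krt1 and Krtdap). Over all 7150 genes by their brightest probe set, with none set aside in this way, 9 were called (0.126%). Of the 4 markers of the histamine-storing enterochromaffin-like cell, all were lower on every treated chip and 1, Hdc, was called lower, with summed signals of 7046 to 7491 on the treated chips and 14788 on the vehicle chip. No marker of either list was at 0 on any chip. All 3 surface mucous markers were higher on every treated chip, with 0 called. For scale, 25.0% of the 9520 probe sets tested were higher in all 3 pools than in vehicle, and 24.0% were lower. Of the 8 pancreatic acinar markers, the 4 tested had mean log2 differences from -1.42 for Cela2a to -0.10 for Clps, also with 0 called. Cela2a, Cel and Cpa1 were lower on every treated chip (limma unadjusted p = 0.000418, 0.000495 and 0.0026, smallest adjusted p = 0.172). Clps and the untested Amy2a3, Cpb1, Pnlip and Prss1 lay on both sides of the vehicle chip. No call was made among the 3 tested macrophage, 2 tested hepatocyte, 2 parietal and 2 chief cell markers. Igfbp2, Igf1r and the Igfbp6 probe sets are the values of the axis that lay on 1 side of the vehicle chip. The squamous markers other than Tp63 and the enterochromaffin-like markers did so too. The part of either cell type in those axis values was not tested.

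**Figure D4:**
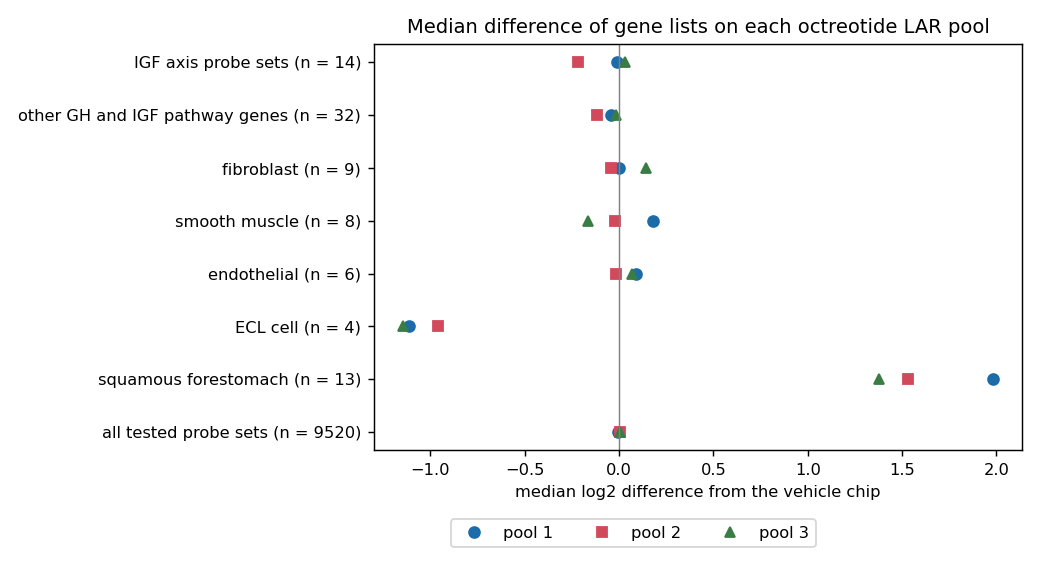
Median log2 difference from the vehicle chip on octreotide LAR pools 1, 2 and 3 for each list, with the number of features in brackets. Cell markers enter whether or not they were tested, and the IGF axis, its pathway and the last line by their tested features. The IGF axis probe sets lie between -0.22 and 0.03, near all tested probe sets and the stromal lists, while the enterochromaffin-like (ECL) list lies between -1.14 and -0.96 and the squamous list between 1.38 and 1.98.

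The genes most like Igf1 and Igfbp6 over the 4 chips were found by the root mean square distance between log2 profiles, each centred on its own mean, among 7149 other genes. Igfbp6 entered as the binding protein with the largest range over the chips, 0.94 on the log2 scale for its brighter probe set, and the range of Igf1 was 0.59. The nearest to Igf1 were Tbc1d22b, Zfyve27 and Retreg2, at distances of 0.018, 0.021 and 0.024. Tbc1d22b had 331.3, 326.2 and 481.1 on treated pools 1 to 3, against 436.8 on the vehicle chip, and so had pools 1 and 2 below and pool 3 above it. As many as 79 genes lay within a distance of 0.1 of Igf1. The second tested Igfbp6 probe set (1387625_at), lower on all treated chips, was not used, so the likeness is that of 1372168_s_at and not of the gene. The nearest to Igfbp6 by 1372168_s_at were Tppp3, Gpihbp1 and Ogfr, at 0.055, 0.065 and 0.075, with 17 genes within 0.1. Tppp3 had 575.5, 299.5 and 390.4 on treated pools 1 to 3, against 290.5 on the vehicle chip, and shared the high pool 1. With 4 chips such a likeness is a description of these profiles.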

How the data were processed

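Per the labels' protocols, total RNA of scraped mucosa was extracted with an RNeasy kit and labelled with biotin by in vitro transcription. The authors deposited a linear intensity for every probe set on each chip. How it was computed and scaled is not given in the sources used here. The 2%-trimmed mean intensity of the chips was 496.8 to 497.2, as after scaling to 1 target, which would hide any change in total messenger RNA. Chip lot, wash protocol and module are those per the file headers.

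Signals were taken as log2(signal + 16) with no further normalization. Folds are given on this scale, where those of dim genes come out too small. The filter left out probe sets below the 40th percentile of the mean over the chips on this scale, a signal of 144.7, and kept 9520. The dimmest tested probe set of the axis (Igfbp6, 1387625_at) had a mean of 279.2 and the brightest untested one (Igf2, 1388252_at) 66.4. The test was that of limma 3.58.1 in R 4.3.3 (lmFit, and eBayes with trend), 3 treated chips against 1, two-sided, with Benjamini-Hochberg adjustment. The fit had 2 residual and 11.5 prior degrees of freedom. Each treated chip holds other animals, per the labels. Arrays give no depth, and their number limits the precision.

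Gene names came from the platform annotation and were updated through Entrez IDs with RefSeq (12748 of 12783 matched). Of the 15866, 312 named several genes and 2771 none here. The text names every probe set of the axis, the 3 genes of the pathway list with the smallest p, fixed cell markers, and the 3 genes nearest to Igf1 and to the binding protein of largest range. The members, lists and tests were chosen with earlier results of these data known. Other settings tried were for pseudocount, filter, scaling, moderation, choice of probe set and treated chips used. Detection calls were not used here.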

Additional observations from a re-analysis of the deposited data

How the results depend on the processing

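No axis probe set was called under any of the 13 alternatives run, and the median log2 difference of the 14 tested stayed between -0.16 and -0.02. The unadjusted p of Igfbp2 was under 0.05 under 11 of 12 alternatives and 0.078 without a trend of the spread, and its log2 difference ran from -0.66 to -0.41. Signs changed only in the Igfbp3 probe sets and in Igfbp5 1387348_at, whose log2 differences in the main fit were -0.0026, 0.06 and 0.11. Igfbp3 (1386881_at) was at 0.0065 with quantile normalization and ran from -0.19 to 0.16 over the fits that leave out 1 treated pool, Igfbp3 (1367652_at) from -0.0078 to 0.20, and Igfbp5 (1387348_at) from -0.0767 to 0.33. The cause was not tested. Over all probe sets the 10 calls became 0 of 15866 without the filter (776 at an unadjusted p under 0.05), 5 with quantile normalization, 5 with centring on the 75th percentile, 1 without a trend, and 31 to 55 without 1 treated pool, where fewer chips give the spread. A filter on the arithmetic mean signal, added after seeing the data, gave 8. No paired analysis was possible because the groups share a single replicate number and the vehicle group is 1 chip.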
